A study of Mus musculus with 9 samples.

Results

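The genes described here carry out the tricarboxylic acid (TCA) cycle, the entry of pyruvate into it and the use of glutamine. They were 34 listed symbols, matched to the Ensembl identifiers of the count table through the GENCODE M21 annotation, out of 47937 genes in the table. All 34 passed the filter on low counts, which left 12536 genes to test. RNA had been sequenced from splenic CD4+ T cells of C57BL/6 mice that were sorted with magnetic beads for CD62L, a surface marker of naive cells. There were 9 libraries, 3 for each of 3 treatments, and each treatment carried the replicate numbers 1, 4 and 5. The cells of the first set are labelled resting. Control cells were activated with plate-bound antibodies to CD3 and CD28 after 15 min with the solvent DMSO. TEPP-46 cells were activated in the same way after 15 min with TEPP-46, an activator of pyruvate kinase M2, the glycolytic enzyme that makes pyruvate. The labels give TEPP-46 as a range of 50 to 100 µM and not per library. For how long cells were activated, whether resting cells were cultured and how old the mice were was not given in the sources used here. Nothing in the labels ties the libraries of a group to separate animals, and the p-values therefore speak only for the spread among these libraries, which may be technical.

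Pyruvate enters mitochondria through the pyruvate carrier and is turned into acetyl-CoA by the pyruvate dehydrogenase complex, which kinases switch off and phosphatases switch on. The TCA cycle oxidises the acetyl group, while pyruvate carboxylase and glutamine-derived glutamate refill its intermediates and citrate lyase draws citrate off. T cells that begin to proliferate are known to raise glycolysis and glutamine use, and aspartate made from oxaloacetate by transaminases feeds nucleotide synthesis.

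Activation raised pyruvate carboxylase, both aspartate transaminases, a pyruvate dehydrogenase kinase and citrate synthase, and lowered an oxoglutarate dehydrogenase subunit and a pyruvate carrier subunit. In control against resting cells, edgeR's quasi-likelihood test called 5 of the 34 higher, namely Pcx, Got1, Pdk3, Got2 and Cs, and 2 lower, Mpc2 and Ogdh. Over all genes tested, 15.5% were called higher and 15.8% lower in that comparison. The median log2 fold change of the 34 was 0.28, beside -0.04 over all genes, and 5 of them (14.7%) changed more than 2-fold in the fitted estimate, beside 33.5% of all genes. Control and resting libraries did not overlap in CPM (counts per 1000000 of the TMM-scaled library size) for 16 of the 34 (47.1%), 12 higher and 4 lower, while 59.2% of all genes did not overlap. At an unadjusted p below 0.05 there were 12. The share of all genes at that unadjusted threshold was not taken in any comparison, so nothing is read from such counts here or below. With resting replicate 4 or 5 or any 1 control library left out, 2 were called higher, Pcx and Got2, and none lower. Those fits called 1227 to 1398 of all genes higher, beside 1938 in the main fit. With TEPP-46 replicate 1 or 4 left out, 10 and 9 were called higher, in fits that called 2449 and 2496 of all genes higher.

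Pyruvate carboxylase, the glutaminase Gls2, a pyruvate dehydrogenase phosphatase and an isocitrate dehydrogenase subunit had lower CPM in TEPP-46 than in control libraries. In TEPP-46 against control cells, 4 of the 34 fell, namely Pcx, Gls2, Pdp2 and Idh3a, and none rose by edgeR's quasi-likelihood test, while 9 of the 34 had an unadjusted p below 0.05. Among all genes 9.72% were called higher and 6.43% lower. None of the 34 was called lower with any 1 control library or TEPP-46 replicate 5 left out. Those fits called 159 to 227 of all genes lower, beside 806 in the main fit, so nothing particular to the 34 is read from the loss. The fold change was negative for 28 of the 34, with a median of -0.44 on the log2 scale beside 0.04 over all genes. Groups did not overlap for 11 of the 34 (32.4%), with the TEPP-46 libraries lower each time, against 39.7% of all genes in either direction. This comparison and the previous one share the 3 control libraries, so their values for a gene are not independent.

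Set against resting cells, TEPP-46 cells differed in none of the 34 past the threshold by edgeR's quasi-likelihood test, with 7 at an unadjusted p below 0.05. DESeq2 called 1 higher (Got2) and 1 lower (Ogdh), and limma-voom with sample quality weights called 2 higher and 8 lower. Over all genes, DESeq2 called 1207 higher and 883 lower, and limma-voom 1803 higher and 1557 lower. By edgeR's test the called shares over all genes were 6.37% higher and 3.92% lower. Libraries did not overlap for 7 of the 34 (20.6%), 2 higher and 5 lower, and for 26.8% of all genes. The median log2 fold change was -0.15 for the 34 and 0.02 for all genes. Leaving out TEPP-46 replicate 4 made Pdk3 and Got2 pass as higher, leaving out TEPP-46 replicate 1 made Pdk2 pass as higher and Pdha1 and Me2 as lower, and leaving out resting replicate 1 made Suclg2 and Pdk1 pass as lower.

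**Figure D1:**
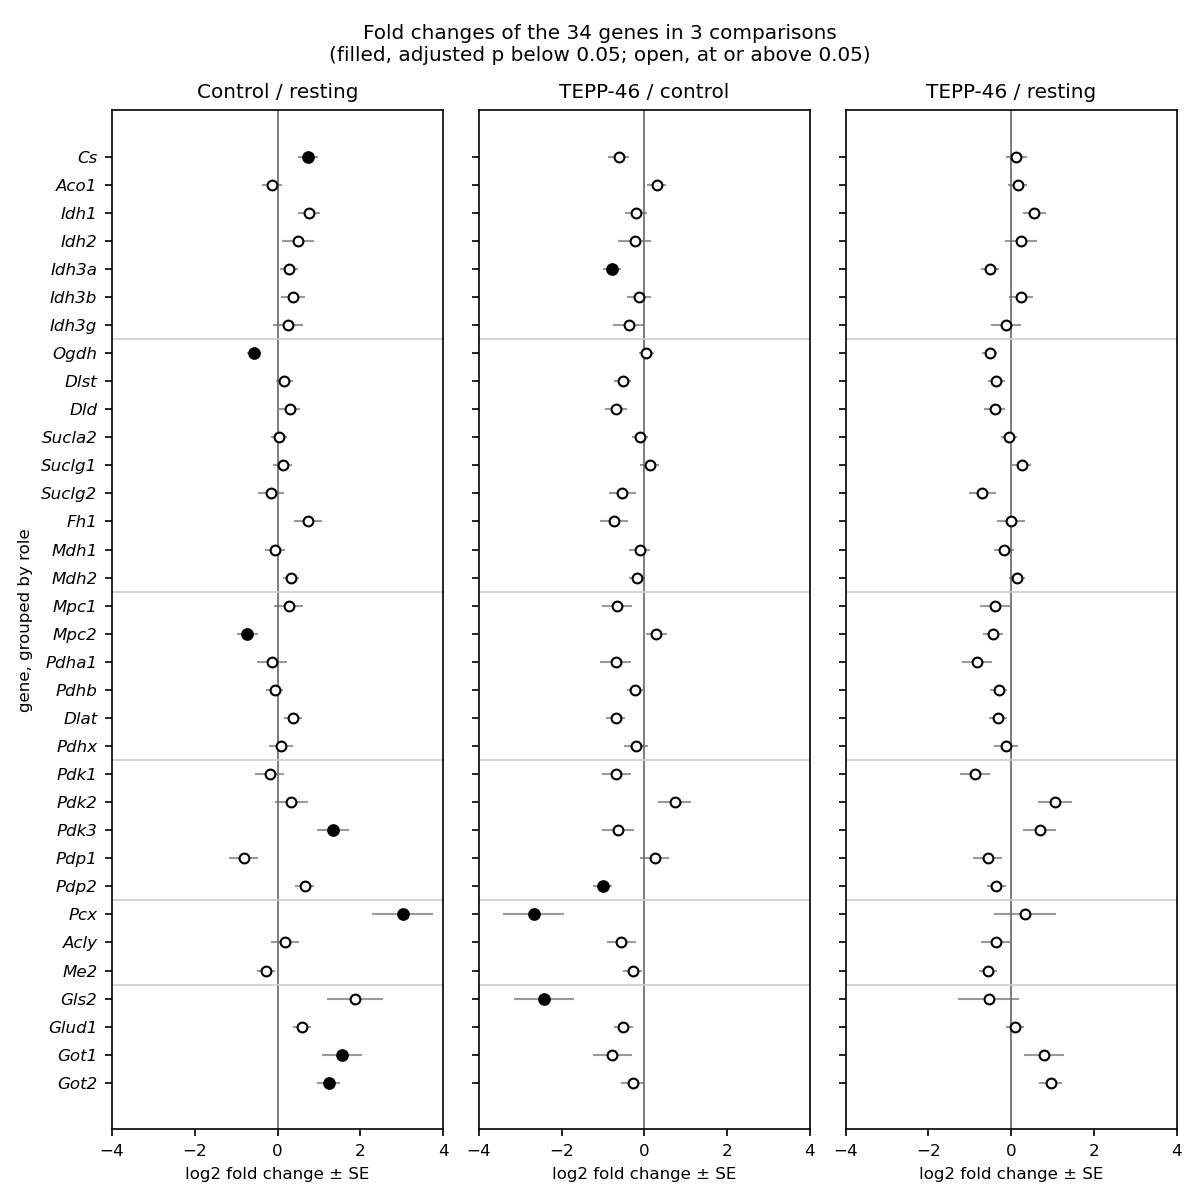
Log2 fold change ± SE (x axis) of each of the 34 genes (y axis, grouped by role) in the 3 comparisons, from the fit over 9 libraries; filled points have an adjusted p below 0.05. The control against resting panel has 5 filled points to the right of 0 and 2 to the left, the TEPP-46 against control panel 4 to the left, and the TEPP-46 against resting panel none.

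The 3 TEPP-46 libraries were unlike each other for these genes. The CPM of the 34 genes summed to 5273 in TEPP-46 replicate 1, 3299 in replicate 4 and 3846 in replicate 5, where control libraries gave 5237, 5389 and 5435 and resting libraries 4263, 4814 and 4778. Replicate 1 thus lay within the controls' range and the other TEPP-46 libraries below every control and resting library. With total counts as the only scaling, the controls summed to 5645, 5553 and 5714 and TEPP-46 replicates 1, 4 and 5 to 4916, 3275 and 3675, so that replicate 1 too was below every control, while it stayed above the resting libraries at 4213 to 4671. Replicate 1 was the highest TEPP-46 library for 25 of the 34 (73.5%), beside 38.3% of all genes. Below every control library lay 13 of the 34 genes in replicate 1, 25 in replicate 4 and 28 in replicate 5, which is 38.2%, 73.5% and 82.4% of them, where all genes gave 38.4%, 44.1% and 39.8%. With TEPP-46 replicate 1 left out, 17 of the 34 were called lower than control and 1, Pdk2, higher, in a fit that called 16.6% of all genes lower and 17.9% higher. With any 1 control library or TEPP-46 replicate 5 left out, none was called lower, and without resting replicate 4 there were 2. Lower calls over all genes were 159 to 227 in the former fits and 590 in the latter, beside 806 in the main fit.

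Measures of the whole library also differed between libraries, and only some of them separated TEPP-46 replicate 1 from replicates 4 and 5. TEPP-46 replicates 4 and 5 held 12292 and 12824 CPM of Malat1, a nuclear RNA, against 2067 to 8385 in the other 7 libraries. Summed CPM of 79 ribosomal protein genes was 35496, 8535 and 17560 in TEPP-46 replicates 1, 4 and 5, against 22506 to 29115 in control and 15983 to 22435 in resting cells. A list of 9 platelet and red cell genes summed to 16.8, 271 and 84.4 CPM in the 3 TEPP-46 libraries and to at most 13.7 elsewhere, with 6 of the 9 at 0 in the control libraries. A B cell list of 13 genes summed to 2880 to 4948 CPM in resting, 233.5 to 262 in control and 753.5 to 1344 in TEPP-46 cells, and of its 11 tested genes 6 were lower in control than in resting cells and 7 higher in TEPP-46 than in control cells; Blk and Cr2 were at 0 in all control libraries. The T cell identity list of 13 genes summed to 7172 to 11757 CPM in resting, 6444 to 7767 in control and 10567 to 12869 in TEPP-46 cells, with 4 members lower in control than in resting cells, 4 higher in TEPP-46 than in control cells and 2 higher in TEPP-46 than in resting cells. Of 7 tested myeloid genes, 1 was higher and 4 were lower in control than in resting cells, and 4 were higher in TEPP-46 than in control cells. The list of 13 summed to 198 to 284, 97.5 to 111 and 131 to 267 CPM in resting, control and TEPP-46 cells. The NK cell list of 8 genes summed to 26.8 to 104, 7.81 to 16.4 and 22.7 to 30.4 CPM. Cd4 stood at 455 to 902 CPM in every library, Cd8a at no more than 5.88 and Cd8b1 at 8.85 to 18.8 in resting, 7.56 to 9.84 in control and 0.84 to 11 in TEPP-46 cells. Over all genes, the called shares were 15.5% higher and 15.8% lower with activation. They were 9.72% and 6.43% in TEPP-46 against control, and 6.37% and 3.92% in TEPP-46 against resting cells. For the B cell, T cell identity, myeloid and NK cell sums, TEPP-46 replicate 1 lay between replicates 4 and 5. The part of any of these measures in the results was not tested. In such bulk samples, fewer cells of a type and less RNA per cell cannot be told apart.

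**Figure D2:**
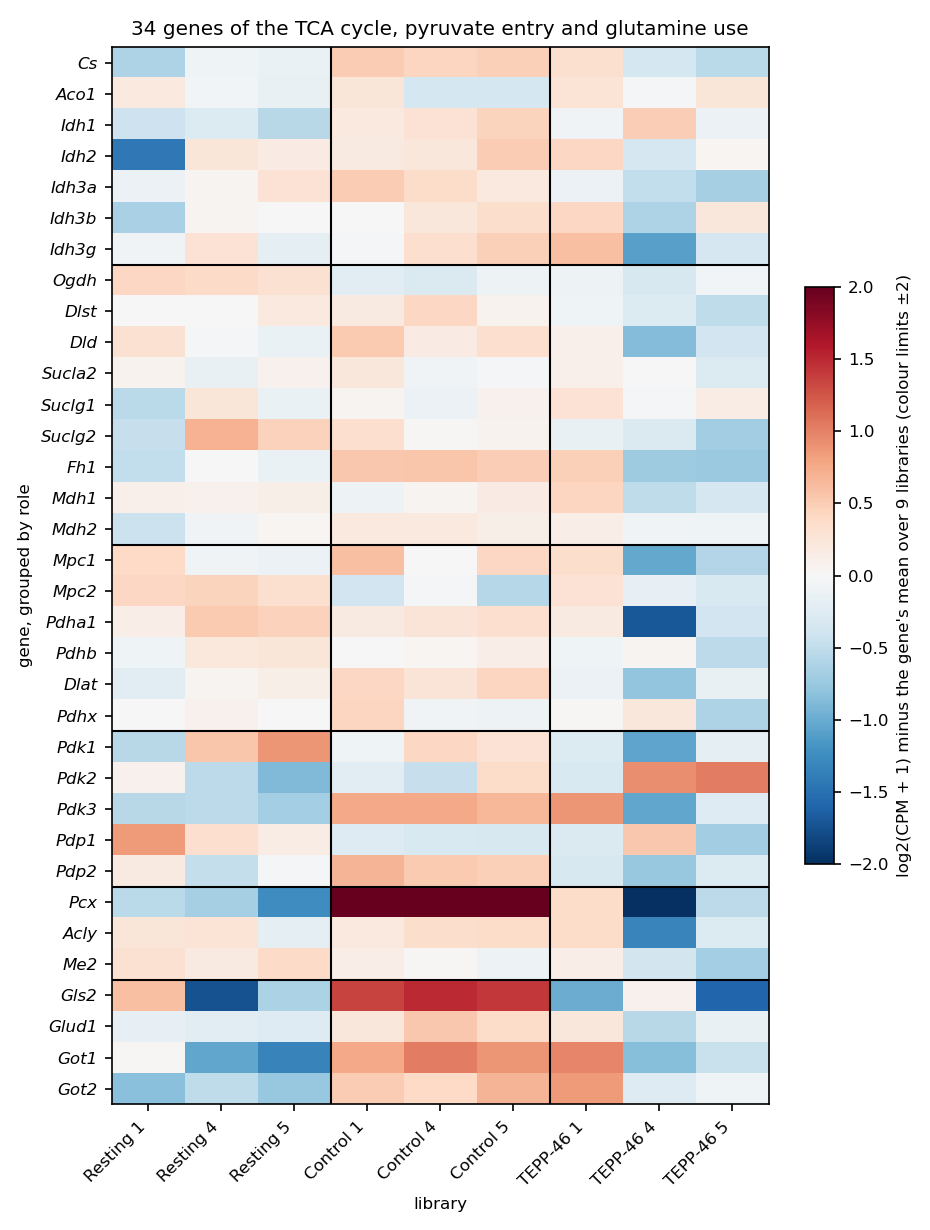
Rows are the 34 genes grouped by role, columns the 9 libraries, and colour is log2(CPM + 1) minus the gene's mean over the 9 libraries, with the scale limited to -2 and 2. The control columns are mostly red, TEPP-46 replicates 4 and 5 mostly blue, and Pcx and Gls2 carry the deepest red in the control columns.

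Promoters are shown for Pcx, Got1 and Pdp2, called genes with a match to an E-box, HIF or ATF4 motif before the first of their RefSeq starts. Ogdh, with 6 starts, and Pdk3, whose window reaches into the annotated transcript, also hold such a match and are not printed. The second Pcx start holds none. RefSeq windows were found for 30 of the 34 genes, with 40 start sites between them, and the 250 bases before each RefSeq start (GRCm38.p6) were searched on both strands. Capitals mark the matches to the first 3 of the 4 motifs, and CCAAT is left in lower case. In Pcx these are CACGTG, the E-box of MYC-type factors, 248 bases before the start, and ACGTG, the core of the HIF motif, 140 bases before it. In Got1 the capitals are TGATGNAA, the composite element of ATF4 and C/EBP factors, found on the opposite strand 102 bases before the start. In Pdp2 they are CACGTG, 219 bases before the start. The Pdp2 stretch was printed only up to the earlier GENCODE start.

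The sequences lie at chr19:4510222-4510471 on the plus strand (Pcx), chr19:43524606-43524855 on the minus strand (Got1) and chr8:104591222-104591450 on the plus strand (Pdp2), and are written 5′ to 3′ on the gene's strand.
Pcx: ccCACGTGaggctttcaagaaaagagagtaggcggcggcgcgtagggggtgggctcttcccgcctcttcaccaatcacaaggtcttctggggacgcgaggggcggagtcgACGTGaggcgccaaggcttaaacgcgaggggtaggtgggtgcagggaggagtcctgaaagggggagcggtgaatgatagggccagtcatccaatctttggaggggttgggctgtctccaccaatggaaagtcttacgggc
Got1: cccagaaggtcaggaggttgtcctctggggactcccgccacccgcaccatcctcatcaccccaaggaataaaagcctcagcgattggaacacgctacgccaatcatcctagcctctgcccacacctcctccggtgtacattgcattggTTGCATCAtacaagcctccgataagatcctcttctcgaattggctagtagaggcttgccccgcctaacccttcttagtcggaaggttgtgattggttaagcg
Pdp2: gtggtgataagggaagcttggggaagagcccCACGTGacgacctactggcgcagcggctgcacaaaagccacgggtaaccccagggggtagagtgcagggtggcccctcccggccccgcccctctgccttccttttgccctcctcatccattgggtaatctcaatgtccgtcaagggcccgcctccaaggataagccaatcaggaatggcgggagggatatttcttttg

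Among the 30 genes with a window, 4 (13.3%) held CACGTG, beside 6.86% of 27025 genes with a window in the genome. The 5-base HIF core, which also lies within every CACGTG, was held by 9 (30%), beside 18.5%. The ATF4 element was held by Got1 alone (3.33%), beside 3.91%. CCAAT, the box bound by NF-Y, was held by 17 (56.7%), beside 37.5%. These are counts of letters in a window and no measure of binding.

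The first part of the cycle, from citrate to 2-oxoglutarate, covers 7 genes, of which 1 rose with activation and 1 fell with TEPP-46. Cs (ENSMUSG00000005683.7, chr10:128337734-128362479, GRCm38, plus strand) encodes citrate synthase, which joins acetyl-CoA to oxaloacetate. Its CPM was 131, 189 and 183 in resting replicates 1, 4 and 5, then 287, 271 and 279 in control cells and 252, 157 and 138.5 in TEPP-46 cells. Every control library exceeded every resting and every TEPP-46 library, and TEPP-46 replicate 1 lay close to the controls. Cs rose by 0.74 ± 0.25 (log2 fold change ± SE, 1.67-fold) with activation, at an adjusted p of 0.0488. The TEPP-46 difference was -0.61 ± 0.25, with an adjusted p of 0.118. The activation call was lost when any 1 of the 6 resting and control libraries was left out, without the low-count filter and with the replicate number as a block, with adjusted p up to 0.126.

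Idh3a (ENSMUSG00000032279.10, chr9:54586334-54604661, plus strand) encodes the catalytic subunit of the NAD-dependent isocitrate dehydrogenase of mitochondria. Its 3 resting libraries stood at 92.3, 104 and 123 CPM, the controls at 142, 129 and 114 and the TEPP-46 libraries at 91.9, 70.6 and 62.4. All TEPP-46 values were below all others, while resting and control libraries overlapped. The fall with TEPP-46 was -0.78 ± 0.21 (log2), with an adjusted p of 0.0352, and activation gave 0.28 ± 0.21 with an adjusted p of 0.345. The call was lost without any 1 control library, TEPP-46 replicate 4 or 5, or resting replicate 4, and also without the low-count filter, with only the compared groups and with the replicate number as a block, with adjusted p up to 0.124. The partner subunits did not pass in any comparison. Idh3b stood at 67.8, 111 and 107 CPM in resting, 107, 125 and 136 in control and 143, 68.9 and 125 in TEPP-46 cells. Idh3g stood at 82.9, 108 and 76.6, then 85.4, 110.2 and 122, then 134, 40.8 and 69.2 CPM in the same order. For both, TEPP-46 replicate 1 was the highest of the 9 libraries and TEPP-46 replicate 4 at or near the lowest. Across the 9 libraries, Pearson's r of log2 CPM was 0.73 between Idh3b and Idh3g, 0.53 between Idh3a and Idh3g and 0.28 between Idh3a and Idh3b, as a description of libraries that share group, depth and state.

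The cytosolic and mitochondrial NADP-dependent isocitrate dehydrogenases and the cytosolic aconitase made up the rest. Idh1 averaged 15.3 ± 1.53 CPM (SD, n = 3) in resting, 26.1 ± 2.5 in control and 22.8 ± 5.76 in TEPP-46 cells, and its activation difference of 0.76 ± 0.27 had an adjusted p of 0.0508. Every control and TEPP-46 library of Idh1 was above every resting library. Idh2 averaged 64.9 ± 33.5, 90.7 ± 11.5 and 76.8 ± 19.9 CPM, the spread in resting cells coming from 26.4 CPM in replicate 1 against 86.4 and 82 in the others. Aco1, also the iron regulatory protein, averaged 57.6 ± 7.18, 52.5 ± 13.6 and 64.4 ± 7.39 CPM with overlapping libraries throughout.

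The second part, from 2-oxoglutarate to oxaloacetate, covers 9 genes, of which Ogdh alone was called, lower with activation. Ogdh (ENSMUSG00000020456.17, chr11:6291633-6356642, plus strand) encodes the first subunit of the oxoglutarate dehydrogenase complex. Resting libraries held 406, 398 and 378 CPM, controls 260.5, 249.9 and 285 and TEPP-46 libraries 285, 244 and 296. The resting values were all above the others, and control and TEPP-46 libraries overlapped. Ogdh fell by 0.57 ± 0.18 on the log2 scale with activation, with an adjusted p of 0.0316. TEPP-46 against control gave 0.05 ± 0.18 with an adjusted p of 0.856, whose sign turned to -0.08 when libraries were scaled by total counts. TEPP-46 against resting gave -0.52 ± 0.18 with an adjusted p of 0.0879. The activation call needed resting replicates 4 and 5 and each control library, and was also lost under scaling by total counts, without the low-count filter and with the replicate number as a block, with adjusted p up to 0.141.

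Both malate dehydrogenases were the most abundant of the 34 per kb of exon. Mdh2, the mitochondrial enzyme, held 473, 607 and 652 CPM in resting, 729, 732 and 692 in control and 698, 605 and 600.5 in TEPP-46 cells. All control libraries lay above all resting libraries, but the difference of 0.31 ± 0.19 (log2) had an adjusted p of 0.24. Mdh1, the cytosolic enzyme of the malate-aspartate shuttle, held 289.7, 286 and 292.5, then 253, 279.6 and 302, then 366, 190.3 and 214.5 CPM. Its TEPP-46 libraries spread across the whole range. Per kb of exon the level of Mdh2 was 162 ± 26.2, 202 ± 6.23 and 178 ± 15.4 CPM (SD, n = 3) in resting, control and TEPP-46 cells, and that of Mdh1 was 113 ± 1.16, 108 ± 9.48 and 100.1 ± 37.2. Acly came next in resting and control cells and Glud1 in TEPP-46 cells, each by a margin within the spread. In resting cells Acly stood at 80.1 ± 13.6 CPM per kb beside 72.2 ± 2.63 for Ogdh. Control cells gave 90.75 ± 5.7 for Acly beside 89.94 ± 9.74 for Glud1. TEPP-46 cells gave 63.3 ± 17.1 for Glud1 beside 61.6 ± 32.8 for Acly.

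The other 6 genes of this part did not pass in any comparison. Dld, the subunit shared by the pyruvate and oxoglutarate dehydrogenase complexes, averaged 111 ± 18.6 CPM in resting, 136 ± 17.1 in control and 84 ± 28.1 in TEPP-46 cells, and its TEPP-46 difference of -0.69 ± 0.26 had an adjusted p of 0.0931. Fh1, fumarate hydratase, averaged 33.1 ± 6, 55.1 ± 1.51 and 32.8 ± 17.8 CPM, and its controls exceeded every resting and TEPP-46 library. Without TEPP-46 replicate 1, which stood at 53.3 CPM beside 22.7 and 22.3 in the others, Fh1 and Dld were both called lower than control, at -1.29 and -0.97 on the log2 scale. Dlst, the middle subunit of the oxoglutarate complex, averaged 58.4 ± 4.54, 65.5 ± 8.23 and 45.6 ± 6.72 CPM, with every TEPP-46 library below all others. The succinyl-CoA ligase genes Sucla2, Suclg1 and Suclg2 averaged 133 ± 11.7, 101 ± 27.3 and 41.5 ± 15.8 CPM in resting, 136 ± 15.3, 110 ± 8.65 and 37 ± 4.51 in control and 127 ± 17, 120.1 ± 13.5 and 25.6 ± 5.08 in TEPP-46 cells.

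Pyruvate entry was represented by the 2 carrier genes and 4 genes of the dehydrogenase complex, and of these Mpc2 alone was called, lower with activation. Mpc2 (ENSMUSG00000026568.6, chr1:165460637-165481214, plus strand) encodes a subunit of the mitochondrial pyruvate carrier. Resting cells held 49.9, 51 and 46.9 CPM, control cells 28.2, 36.2 and 24.7 and TEPP-46 cells 45.6, 33.2 and 30.1. All resting libraries were above all others, and TEPP-46 replicate 1 came close to them. Mpc2 fell by 0.73 ± 0.25 on the log2 scale with activation, with an adjusted p of 0.0456, and the TEPP-46 difference was 0.29 ± 0.25 with an adjusted p of 0.43. The activation call was lost without any 1 resting or control library and in 4 of the 7 other settings, with adjusted p up to 0.171.

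Mpc1, the partner subunit, averaged 44.6 ± 9.45, 54 ± 10.9 and 33.9 ± 17.7 CPM in resting, control and TEPP-46 cells, with overlap in every comparison. Pdha1, the catalytic subunit of pyruvate dehydrogenase, held 169.8, 222 and 214 CPM in resting, 174, 184 and 195 in control and 176, 47 and 118 in TEPP-46 cells. Pdhb, which pairs with it, held 152, 187 and 191, then 162, 165 and 176.5, then 152, 167 and 112 CPM. TEPP-46 replicate 4 was the lowest library by far for Pdha1 and not for Pdhb. Dlat, the acetyltransferase core, averaged 104 ± 11.8, 136 ± 8.99 and 83.7 ± 20.5 CPM, with controls above every other library, and its TEPP-46 difference of -0.69 ± 0.22 had an adjusted p of 0.0563. Pdhx, the binding protein of the core, averaged 25.6 ± 0.744, 27 ± 6.14 and 23.5 ± 6.95 CPM. Across the 9 libraries Pearson's r of log2 CPM was 0.82 for Pdha1 with Dlat but 0.30 for Pdha1 with Pdhb, given as a description.

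The kinases and phosphatases that set the activity of pyruvate dehydrogenase covered 5 genes, of which 1 was called in each of the first 2 comparisons, Pdk3 higher with activation and Pdp2 lower with TEPP-46. Pdk3 (ENSMUSG00000035232.8, chrX:93764607-93832201, minus strand), a kinase that inactivates the complex, held 35.4, 36.4 and 32.5 CPM in resting, 90.0, 89.5 and 83.9 in control and 98.5, 25.2 and 44 in TEPP-46 cells. The control libraries all exceeded the resting ones, and the TEPP-46 libraries lay above, below and between them. Pdk3 rose by 1.34 ± 0.40 (log2, 2.52-fold) with activation, at an adjusted p of 0.0274. The call held in all 7 other settings, but was lost without any 1 resting or control library, with adjusted p up to 0.0813. TEPP-46 against control gave -0.64 ± 0.39, with an adjusted p of 0.268, and -1.33 without TEPP-46 replicate 1, which was then called.

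Pdp2 (ENSMUSG00000048371.7, chr8:104591451-104599026, plus strand) encodes a phosphatase that reactivates the complex. It held 61.8, 39.1 and 53.2 CPM in resting, 87.8, 78.5 and 76.6 in control and 43.5, 31.9 and 45 in TEPP-46 cells. Controls were above every other library, and the 3 TEPP-46 libraries were close together. Pdp2 fell by 1.01 ± 0.24 on the log2 scale with TEPP-46 (2.01-fold lower), with an adjusted p of 0.0204, and its activation difference of 0.66 ± 0.23 had an adjusted p of 0.0548. The TEPP-46 call held in all 7 other settings and in 5 of 9 fits that left out a library, being lost without any 1 control library or TEPP-46 replicate 5, with adjusted p up to 0.0815. Without TEPP-46 replicate 1 the difference was -1.07.

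Pdk1, a kinase of the same complex that is known as a target of HIF, held 193, 415 and 522 CPM in resting, 267, 378 and 346 in control and 235, 136.5 and 249 in TEPP-46 cells. Every TEPP-46 library was below every control library, yet the adjusted p was 0.21, and resting replicate 1 lay far below the other resting libraries. Pdk2, another kinase of the family, held 35.4, 22.7 and 17.5, then 28.2, 24 and 43.4, then 26.7, 64.3 and 68.3 CPM. TEPP-46 replicates 4 and 5 were above all control libraries and replicate 1 within them. The difference of 0.73 ± 0.40 had an adjusted p of 0.226, and without TEPP-46 replicate 1 Pdk2 was called higher than control at 1.06. Pdp1, the second phosphatase, averaged 29 ± 7.83, 16.5 ± 0.414 and 19.7 ± 9.39 CPM, with every control below every resting library and an adjusted p of 0.102.

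**Figure D3:**
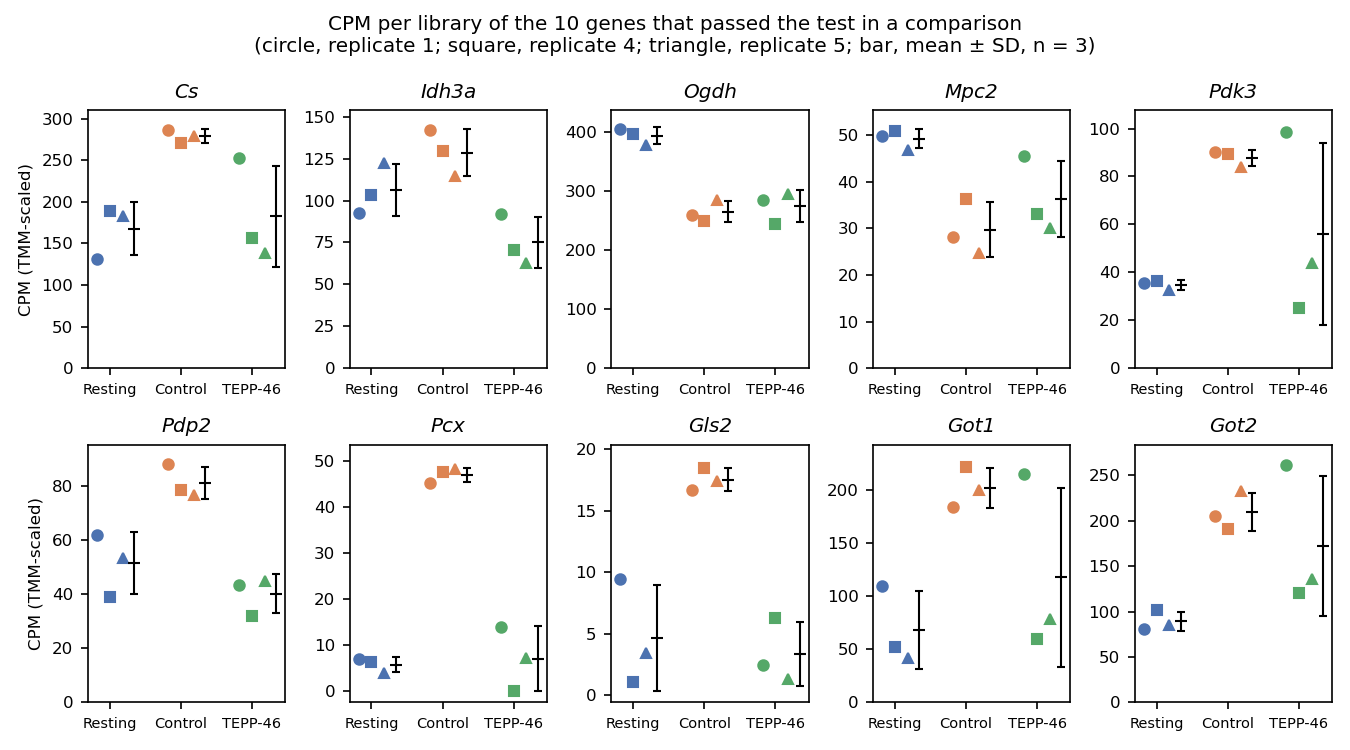
CPM (y axis) in each library of the 10 genes called in at least 1 comparison, by group (x axis), with marker shape for the replicate number and bars for mean ± SD (n = 3). The controls cluster tightly for most genes, and TEPP-46 replicate 1 (circle) sits within or above the controls for Pdk3, Got1 and Got2 but below them for Pcx, Gls2, Pdp2 and Idh3a.

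The enzymes that refill the cycle from pyruvate or draw carbon from it included the gene with the largest activation fold change of the 34. Pcx (ENSMUSG00000024892.15, chr19:4510472-4621752, plus strand) encodes pyruvate carboxylase, which makes oxaloacetate from pyruvate. It was low in resting cells at 7.04, 6.34 and 3.89 CPM (35, 24 and 18 counts), and the controls held 45.1, 47.5 and 48.1 CPM (184, 198 and 191 counts). TEPP-46 replicates 1, 4 and 5 held 14, 0 and 7.12 CPM (51, 0 and 22 counts). Controls exceeded every other library, and TEPP-46 libraries lay on both sides of the resting ones. A count of 0 in replicate 4 allows up to 3 counts, or 1.26 CPM, as counting error only.

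Pcx rose by 3.02 ± 0.74 (log2, 8.12-fold) with activation, with an adjusted p of 0.0121, and the call held in all 9 fits that left out a library and all 7 other settings. With TEPP-46 it fell by 2.67 ± 0.73 on the log2 scale, with an adjusted p of 0.0347. That difference was -2.14 without TEPP-46 replicate 4 and -3.61 without TEPP-46 replicate 1, both called. The TEPP-46 call was lost without any 1 control library, TEPP-46 replicate 5 or resting replicate 4, when the resting group was left out of the fit and with the replicate number as a block, with adjusted p up to 0.11. Per kb of exon, Pcx was the least abundant of the 34 in resting cells at 1.21 ± 0.348 CPM (SD, n = 3), beside 1.34 ± 1.25 for Gls2, a difference within their spread.

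Acly, the cytosolic citrate lyase that supplies acetyl-CoA for lipids and acetylation, held 461, 468 and 339.9 CPM in resting, 444.5, 494 and 499 in control and 500.5, 155 and 321 in TEPP-46 cells. Me2, the mitochondrial malic enzyme, held 328.5, 299 and 346, then 289.7, 268 and 246, then 289.6, 205 and 166 CPM. For both, TEPP-46 replicate 1 was within or just above the controls and the others below them. Neither passed in any comparison, and without TEPP-46 replicate 1 both were called lower than control, at -1.01 for Acly and -0.53 for Me2.

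The 4 genes of glutamine, glutamate and aspartate metabolism had the highest activation median of the 6 roles, at 1.4 on the log2 scale, and none was below 0. Got2 (ENSMUSG00000031672.7, chr8:95864134-95888547, minus strand), the mitochondrial aspartate transaminase, held 80.7, 101 and 85.5 CPM in resting, 205, 191 and 233 in control and 261, 121 and 136 in TEPP-46 cells. Control and TEPP-46 libraries were all above the resting ones, and TEPP-46 replicate 1 was above every control. Got2 rose by 1.23 ± 0.29 (log2, 2.35-fold) with activation, with an adjusted p of 0.00968, and kept the call in all 9 fits that left out a library and in all 7 other settings. TEPP-46 against resting gave 0.95 ± 0.29 with an adjusted p of 0.0604, and TEPP-46 against control -0.28 ± 0.28 with an adjusted p of 0.511. Without TEPP-46 replicate 1, Got2 was called lower than control at -0.71.

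Got1 (ENSMUSG00000025190.13, chr19:43499752-43524605, minus strand), the cytosolic form, held 109.8, 51.8 and 42.2 CPM in resting, 184, 221 and 199.9 in control and 214.5, 59.7 and 78.6 in TEPP-46 cells. Controls exceeded all resting libraries, and the TEPP-46 libraries ran from the resting range to within the control range. The rise with activation was 1.57 ± 0.48 (log2, 2.96-fold) with an adjusted p of 0.0324. It held in all 7 other settings but not when resting replicate 4, resting replicate 5 or a control library was dropped, with adjusted p up to 0.109. TEPP-46 against control gave -0.77 ± 0.47, with an adjusted p of 0.274, and -1.54 without TEPP-46 replicate 1, which was then called. Across the 9 libraries Got1 and Got2 had a Pearson's r of 0.84, as a description.

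Gls2 (ENSMUSG00000044005.13, chr10:128194457-128210004, plus strand), the liver-type glutaminase that turns glutamine into glutamate, was read from few counts. These were 47, 4 and 16 in resting, 68, 77 and 69 in control and 9, 15 and 4 in TEPP-46 libraries, or 9.46, 1.06 and 3.46 CPM, 16.7, 18.5 and 17.4 CPM, and 2.48, 6.3 and 1.29 CPM. Controls were above every other library, while resting and TEPP-46 libraries overlapped. Gls2 fell by 2.42 ± 0.72 on the log2 scale with TEPP-46, with an adjusted p of 0.0455, and by 3.17 without TEPP-46 replicate 4 or 3.36 with limma-voom and sample quality weights. The call was lost without any 1 control library, TEPP-46 replicate 1 or 5 or resting replicate 5, and with the replicate number as a block, with adjusted p up to 0.144. Activation gave 1.88 ± 0.68 with an adjusted p of 0.0567, and 2.91 with a call without resting replicate 1. Glud1, glutamate dehydrogenase, held 259, 251 and 242 CPM in resting, 340.5, 422 and 374 in control and 341, 197 and 261 in TEPP-46 cells. Its controls were above every resting library, with a difference of 0.59 ± 0.22 and an adjusted p of 0.0648.

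**Figure D4:**
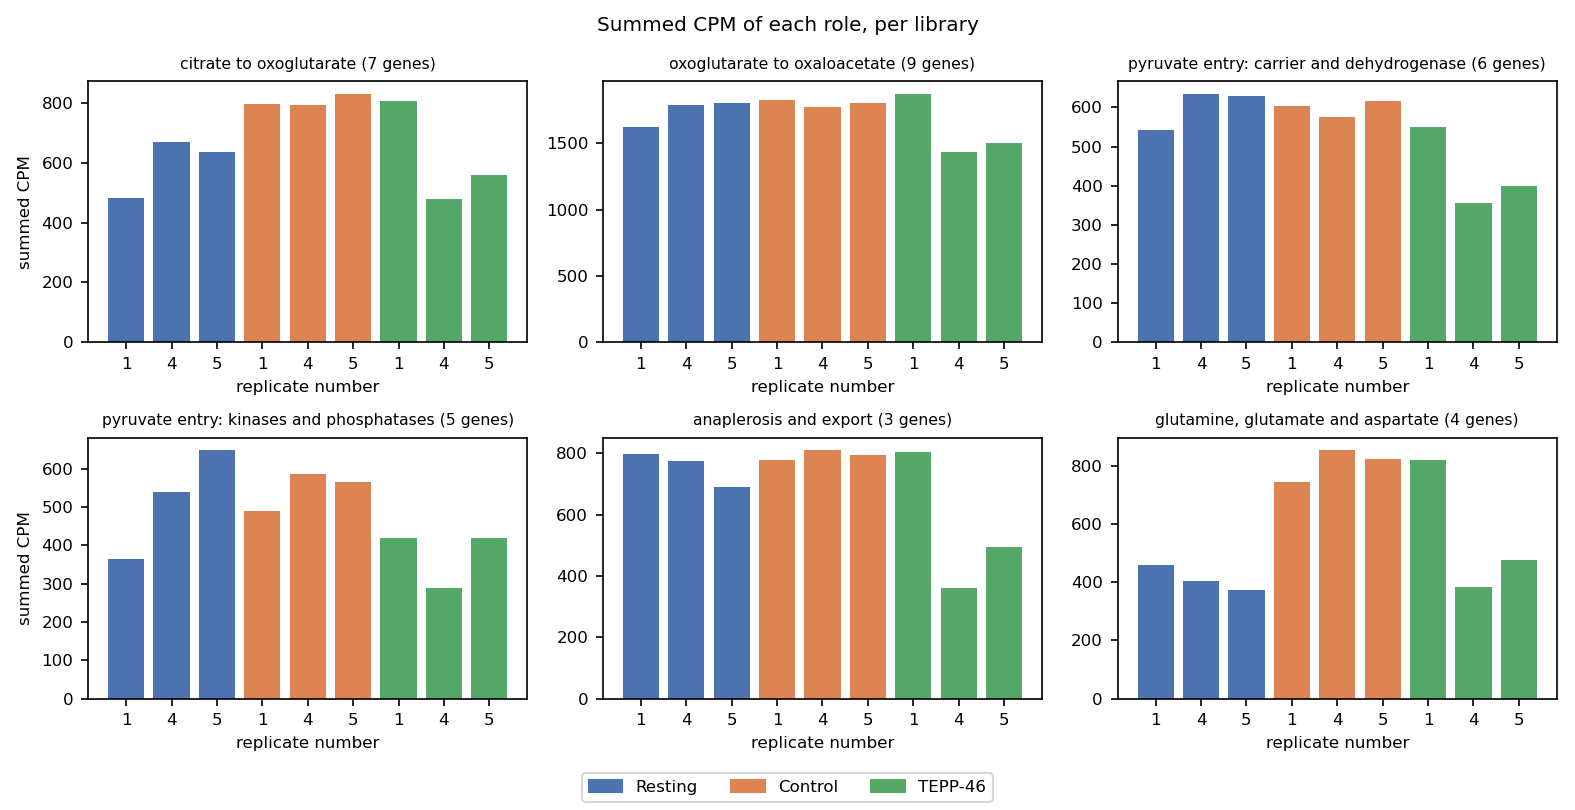
Summed CPM (y axis) of the genes of each of the 6 roles in each library (x axis, replicate number, coloured by group). Glutamine, glutamate and aspartate genes summed to 373 to 459 in resting and 745 to 853 in control libraries, while oxoglutarate to oxaloacetate genes summed to 1620 to 1803 and 1771 to 1824, and TEPP-46 replicate 1 was at or near the control level in most panels.

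Ratios of partner genes within a library do not depend on the scaling between libraries. For 7 pairs and 3 comparisons, 21 exact permutation tests (two-sided) were run, and with 3 libraries against 3 the smallest p is 0.1. In 7 of the 21 exact tests the groups did not overlap, each with p = 0.1 and an adjusted p of 0.3. On the log2 scale, the Pdk1:Pdk3 ratio was 3.3 ± 0.795 (SD, n = 3) in resting and 1.89 ± 0.285 in control cells. The Pdp1:Pdp2 ratio went from -0.82 ± 0.33 in resting to -2.26 ± 0.0694 in control cells, and was -1.09 ± 0.908 in TEPP-46 cells, so control libraries were lower than both other groups. Mpc1:Mpc2 was -0.16 ± 0.273 in resting and 0.85 ± 0.545 in control cells, and Mdh1:Mdh2 was -0.98 ± 0.241 and -1.37 ± 0.164.

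Between control and TEPP-46 cells, Got1:Got2 went from -0.06 ± 0.232 to -0.69 ± 0.372 and Suclg2:Sucla2 from -1.87 ± 0.0115 to -2.3 ± 0.0957, without overlap. The cytosolic to mitochondrial Idh1:Idh2 ratio overlapped in all 3 comparisons, at -1.87 ± 0.961, -1.77 ± 0.0604 and -1.73 ± 0.685 in resting, control and TEPP-46 cells. None of these reached the threshold, which this number of libraries cannot reach.

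**Figure D5:**
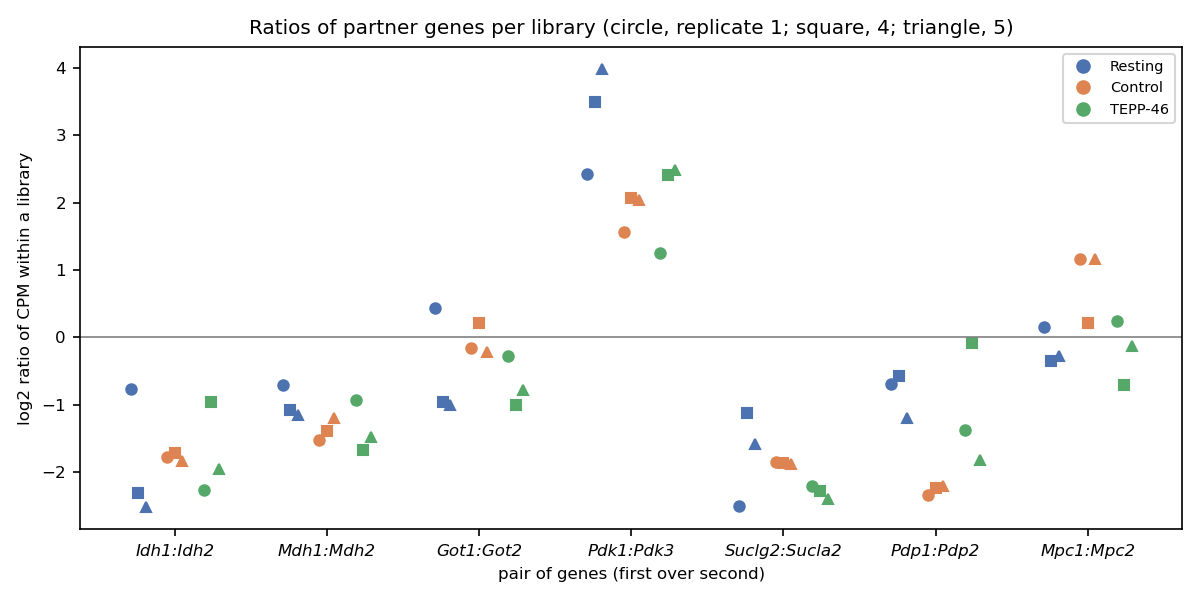
Log2 ratio of CPM of the first over the second gene (y axis) in each library for 7 pairs (x axis), coloured by group with marker shape for the replicate number. Control libraries lie close together for most pairs and below every resting library for Pdk1:Pdk3 and Pdp1:Pdp2, and above every resting library for Mpc1:Mpc2.

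The spread between libraries differed by group. The median SD of log2 CPM over the 34 genes was 0.24 in resting, 0.13 in control and 0.45 in TEPP-46 cells, beside 0.31, 0.20 and 0.52 over all genes. Mdh1 had the smallest SD in resting cells, Pdp1 in control cells and Mdh2 in TEPP-46 cells, and the largest belonged to Gls2, Pdk2 and Pcx in the same order.

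Other genes of these pathways came from a list of 31, of which 25 were tested. With activation 6 were higher and 2 lower, with TEPP-46 against control 2 were higher and 5 lower, and with TEPP-46 against resting 2 were higher and none lower by edgeR. Over all genes these shares were 15.5% and 15.8%, 9.72% and 6.43%, and 6.37% and 3.92%, and nothing is read from the difference. Gpt2, the mitochondrial alanine transaminase, averaged 3.13 ± 2.52 CPM (SD, n = 3) in resting, 52 ± 3.7 in control and 5.06 ± 6.9 in TEPP-46 cells. Its counts were 30, 7 and 7 in resting, 229, 211 and 195 in control and 47, 0 and 7 in TEPP-46 libraries. It passed the filter on low counts through the controls, so its calls are in the counts above but its values are given as a description. Aldh18a1, which makes the proline precursor from glutamate, averaged 124 ± 19.8, 332 ± 30.3 and 100.5 ± 32.9 CPM and rose by 1.43 ± 0.26 and fell by 1.72 ± 0.27 (adjusted p 0.00337 and 0.00447).

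D2hgdh, which clears D-2-hydroxyglutarate, fell by 1.32 ± 0.24 on the log2 scale with activation and was higher with TEPP-46 by 1.84 ± 0.25, with adjusted p of 0.00346 and 0.00268. Acss1, which makes acetyl-CoA from acetate in mitochondria, averaged 91.8 ± 11.1, 28.6 ± 4.76 and 127 ± 60.1 CPM, lower with activation (adjusted p 0.00647) and higher with TEPP-46 (adjusted p 0.00624). Slc38a1, an amino acid transporter that takes up glutamine, and Pck2, the mitochondrial phosphoenolpyruvate carboxykinase, rose with activation and were the 2 called higher in TEPP-46 than in resting cells, at 1.005 ± 0.236 and 1.82 ± 0.42 (adjusted p 0.0259 and 0.0241). Bckdhb, a subunit of the branched-chain ketoacid dehydrogenase, was called lower with TEPP-46 than in control cells at -2.20 ± 0.60 (adjusted p 0.0331). It was read from few counts, 44, 63 and 31 in control and 13, 2 and 8 in TEPP-46 libraries. Bckdha and Dbt, of the same complex, were not called in that comparison, at 0.47 ± 0.25 and 0.50 ± 0.46. On the list, 6 genes had too few counts to test, namely Pdk4, Me1, Me3, Ogdhl, Adhfe1 and Abat. Of the neighbouring glycolytic genes, Pkm rose by 1.98 with activation (adjusted p 0.00509) and Ldha by 1.82 (adjusted p 0.0133), and with TEPP-46 they differed by -0.74 and -0.78, with adjusted p of 0.201 and 0.238.

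Some of these counts may hold reads of other genes. The strand of counting is unknown, and exons of Gls2, Pdha1, Mpc1, Got2, Mdh1 and Idh3b overlap those of a gene on the opposite strand by 97, 603, 480, 434, 52 and 5 bases. The partners are Spryd4, Map3k15, 4930506C21Rik, Gm45760, Wdpcp and Nop56. Mpc1 and Got2 also have a processed pseudogene each in the annotation, so their values are uncertain to that extent.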

How the data were processed

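Total RNA of 9 libraries was sequenced. The deposited table of the authors gives raw, unnormalized read counts, in whole numbers per gene and library. DESeq2 and the mouse build GRCm38 are named in the submitters' processing notes. Aligner, counter, strand setting and annotation release: not given in the sources used here. Symbols and coordinates are those of GENCODE M21, which paired 47224 of 47937 identifiers, 39106 of them with the same version. For 24 of the 34 genes described, the version was the same. The members and the gene lists were chosen with earlier results of these data known, and the motifs and the promoters shown were chosen after seeing the data.

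Library totals ran from 2397304 to 5030643 counts, and 3 counts corresponded to 0.604 to 1.26 CPM (counts scaled by TMM library size to 1000000). No molecular identifiers were used here, so floors cover counting error only. The filterByExpr function of edgeR 4.0.16 (R 4.3.3), with a minimum count of 10 and total of 15, kept 12536 genes. All 9 libraries were fitted by group with glmQLFit and glmQLFTest, two-sided, with Benjamini-Hochberg adjustment over the 12536 genes and a threshold of 0.05. The common dispersion was 0.1086, with 6 residual degrees of freedom. CPM is given per library or as mean ± SD, with a prior count of 2 for log2 CPM. CPM measures a share of a library and not an amount per cell. The code was tested on simulated data.

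Genes called in any comparison were given with all library values. Of the others, up to 2 per role were given so, in order of mean CPM, and the rest by group means. Alternatives were DESeq2 1.42.0, limma-voom with sample quality weights (limma 3.58.1), DESeq2 size factors, total counts only, no low-count filter, the compared groups only, a replicate block and leaving out each library. Ratios of gene pairs were compared by exact permutation tests. Promoter windows are those of RefSeq on GRCm38.p6. Some genes of the list of other pathway genes are counted but not reported here by name.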

Additional observations from a re-analysis of the deposited data

How the results depend on the processing

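Among the listed genes called higher with activation, 5 became 9 with DESeq2, 12 with limma-voom with sample quality weights, 9 with total counts only and 10 with only the groups compared, and ran from 2 to 10 with a library left out. Higher calls over all genes went from 1938 to 2319, 3603, 2231 and 2956 in the same order, and ran from 1227 to 2496. Those called lower, 2, became 1 with DESeq2 size factors in edgeR, 0 with total counts only, 0 without the low-count filter and 0 with the replicate block, and ran from 0 to 3 with a library left out. The all-gene lower calls went from 1976 to 1859, 1604, 2047 (of more genes tested) and 1666 in the same order, and ran from 1075 to 2538. With TEPP-46 against control, the number lower, 4, became 20 with limma-voom, 2 with only the groups compared and 1 with the replicate block (Pdp2), and ran from 0 to 17 with a library left out. All-gene lower calls went from 806 to 2978, 546 and 560 in the same order, and ran from 159 to 2086. The number of listed genes higher, 0, became 1 with limma-voom and ran from 0 to 1. All-gene higher calls went from 1219 to 3186 with limma-voom and ran from 297 to 2245. With TEPP-46 against resting, the number higher, 0, became 1 with DESeq2, 2 with limma-voom and 1 without the filter (0 to 2 with a library left out), and the number lower, 0, became 1 with DESeq2 and 8 with limma-voom (0 to 2). For all genes, higher calls went from 798 to 1207, 1803 and 1125 (278 to 1051 with a library left out). Their lower calls went from 491 to 883 and 1557 (162 to 767). Over all genes, 3914 calls with activation became 7315 with limma-voom (2304 to 5034 with a library left out). The 2025 of TEPP-46 against control became 3057 with DESeq2 and 6164 with limma-voom (456 to 4331), and the 1289 of TEPP-46 against resting became 2090, 3360, 355 with only the groups compared and 705 with the replicate block (449 to 1818). Scaling by total counts moved the share of higher calls from 60.2% to 43.8% and the all-gene median from 0.04 to -0.09 in TEPP-46 against control, and from 49.5% to 58.2% and from -0.04 to 0.07 with activation. Signs turned in uncalled differences only. Ogdh in TEPP-46 against control was -0.0834 with total counts only and ran from -0.00334 to 0.13 with a library left out. Against resting, Cs with TEPP-46 was -0.31 with limma-voom and ran from -0.18 to 0.29, Pcx from -0.59 to 0.88 and Gls2 from -1.30 to 0.48. Leaving out a library turned the sign of 9 of the 21 gene-pair differences, 0 of them among the 7 without overlap. Without resting replicate 1, Got1:Got2 in TEPP-46 against resting went from -0.18 to 0.30 and Idh1:Idh2 with activation from 0.09 to 0.65. No pairing of libraries by replicate number was seen, but these correlations cannot exclude a weak one or one limited to some genes. The 9 pairs with the same number in different groups had correlations of their deviations from the group means from -0.12 to 0.09, and 0 exceeded 0.1. Pairs with different numbers ran from -0.11 to 0.12. The cause of these changes was not tested. At the lowest depth, 2397304 counts, 3 counts equal 1.26 CPM, which limits Pcx and Gls2.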
